A study of Mus musculus with 8 samples.

Results

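The sodium pump (Na,K-ATPase), its small FXYD regulators and the carbonic anhydrases together move ions, bicarbonate and water across epithelia and across the corneal endothelium. The genes described here are 7 of that machinery, found in the table by their symbols after earlier results of these data were known: the pump beta subunits Atp1b1, Atp1b2 and Atp1b3, the FXYD regulators Fxyd1 and Fxyd3, and the carbonic anhydrases Car2 and Car12. They are 7 of the 23420 named genes in the deposited table, and all 7 had more than 3 reads in both tissues. RNA from limbal rims, the ring of tissue between cornea and sclera, was compared with RNA from corneal buttons, the cornea inside that ring, in wild type C57BL/6J mice aged 8 weeks with no treatment named in the labels. Rims and buttons from 16 eyes were separated under a microscope and pooled by tissue before RNA extraction. The labels name 4 samples per tissue, but the table holds values built from 1 library per tissue, so the spread between animals is unknown and the differences below have no replicate check.

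The sodium pump exports sodium and imports potassium using ATP. Its alpha subunit is catalytic, its beta subunit is a glycoprotein needed for the pump to fold and reach the plasma membrane, and an FXYD protein can join the complex and tune its affinity for ions. Carbonic anhydrases interconvert carbon dioxide and bicarbonate. In the cornea, the endothelial pump and carbonic anhydrases are known for drawing fluid out of the stroma, which keeps it thin and transparent. In the ciliary epithelium the same classes of protein serve the secretion of aqueous humor.

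Named genes held 26104317 reads in the cornea library against 21182025 in the limbus library. Reads were worked back from the deposited means and are derived values. Normalized reads are reads divided by the size factor of the library, and log2 ratios are limbus over cornea. Each ratio carries an exact 95% Clopper-Pearson interval, which covers counting error only. A gene was called higher in a tissue when that interval excluded 0. Among the 13862 genes tested, those above 3 reads in each library, 33.2% were called higher in the limbus and 40.6% higher in the cornea by this rule, so passing it was common. Scaling both libraries to total reads instead turned this split, to 45.1% higher in the limbus and 29.7% higher in the cornea. The whole interval lay beyond a 2-fold difference for 10.4% of genes towards the limbus and for 4.85% towards the cornea. The labelled tissues were checked by their keratins: the corneal keratin Krt12 had 1137735 cornea and 233324 limbus reads, while Krt4, a keratin of the conjunctiva, had 2138 and 71498.

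Of the 7 genes, 6 were called higher in the limbus (33.2% of all genes tested were) and 1, Atp1b3, higher in the cornea (40.6%). For 5 of them (Atp1b1, Atp1b2, Fxyd1, Car2 and Car12) the whole interval lay beyond a 2-fold difference towards the limbus (10.4% of all genes tested), and for none towards the cornea (4.85%). The median log2 ratio of the 7 was 3.27, against -0.05 for all genes tested, and since the 7 were picked with results known, nothing is read from that contrast. Atp1b3 and Fxyd3, the most abundant of the 7 in the cornea, had the ratios nearest to 0, and the other 5 had larger ratios. The cornea level is the denominator of each ratio, so nothing is read from this order. These ratios rest on the read pair chosen for each gene, and the next best pair, which would give a log2 ratio of 2.48 for Atp1b1, 0.80 for Atp1b2, 1.38 for Fxyd1 and 2.64 for Car12, missed the deposited fold change and error by at least 0.22 in sum where the chosen pair missed by at most 0.00014.

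Promoter sequences from RefSeq (GRCm38.p6) are shown for 3 of the genes, the abundant Atp1b3 and the limbus-high Fxyd1 and Car12, to set side by side the genes with the smallest and with the largest log2 ratios among the 7. Each is the 250 bases before a RefSeq transcript start, 5′ to 3′ on the strand of the gene, and 5 of the 7 genes matched an entry. Atp1b2 and Car2 did not. Capitals mark matches, on either strand, to the GC box GGGCGG, the TATA box TATAAA or the CCAAT box CCAAT. These were the motifs searched, and no matches overlapped in the windows shown.
Atp1b3, chr9:96364432-96364681, minus strand: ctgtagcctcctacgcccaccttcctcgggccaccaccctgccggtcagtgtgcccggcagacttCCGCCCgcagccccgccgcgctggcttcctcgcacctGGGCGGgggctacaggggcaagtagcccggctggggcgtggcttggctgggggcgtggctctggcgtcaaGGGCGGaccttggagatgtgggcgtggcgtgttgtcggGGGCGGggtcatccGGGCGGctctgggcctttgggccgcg
Fxyd1, chr7:31054854-31055103, minus strand: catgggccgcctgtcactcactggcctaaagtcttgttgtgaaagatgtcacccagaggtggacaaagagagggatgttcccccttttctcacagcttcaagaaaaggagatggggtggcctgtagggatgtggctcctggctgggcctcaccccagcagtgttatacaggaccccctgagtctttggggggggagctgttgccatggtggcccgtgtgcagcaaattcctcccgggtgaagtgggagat
Car12, chr9:66713436-66713685, plus strand: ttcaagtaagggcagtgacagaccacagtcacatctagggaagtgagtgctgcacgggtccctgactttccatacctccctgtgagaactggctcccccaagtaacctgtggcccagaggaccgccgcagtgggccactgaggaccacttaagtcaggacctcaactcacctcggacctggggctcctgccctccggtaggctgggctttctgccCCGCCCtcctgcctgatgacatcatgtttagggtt
The Atp1b3 window held 5 GC boxes and 24 CpG dinucleotides, and 88.0% of all 32851 windows of this length held fewer CpG. The Car12 window held 1 GC box and 6 CpG. The Fxyd1 window held no match and 3 CpG. That window lies inside the whole gene span of Fxyd1 (31051678 to 31057199), so it does not precede the outermost start of the gene. In all windows, 32.7% held a GC box, 12.4% a TATA box and 33.8% a CCAAT box, and the median CpG count was 6. The Atp1b1 window, which is not shown, also held 24 CpG, with 2 GC boxes and 1 CCAAT box, and the Fxyd3 window held 5 CpG and 1 CCAAT box. A second Atp1b3 start had a window, also inside the gene span, with none of these motifs and 35 CpG. These are descriptions of letters and were not linked to any measurement of transcription factors.

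The 3 beta subunits differed in level and in direction. Positions are of whole genes in GRCm38. Atp1b3 (chromosome 9, 96332655 to 96364442) supplied nearly all beta subunit reads. It had 17839 cornea and 12601 limbus reads, which is 17256.7 and 13026.2 normalized reads, and was 1.32-fold higher in the cornea (log2 ratio -0.41, interval -0.44 to -0.37). Of all genes tested, 30.1% had a lower ratio, so this was an ordinary value for the table even though its interval was narrow. Atp1b1 (chromosome 1, 164437109 to 164458355), the beta subunit of most transporting epithelia, had 268 cornea and 726 limbus reads. This was 2.89-fold higher in the limbus (log2 ratio 1.53, interval 1.33 to 1.74). Atp1b2 (chromosome 11, 69599736 to 69605942), known from glia as an adhesion molecule, had 38 cornea and 342 limbus reads. It was 9.62-fold higher in the limbus (log2 ratio 3.27, interval 2.78 to 3.79), and 2.58% of genes tested had a higher ratio. The fourth beta gene, Atp1b4, was listed at 0 in both libraries.

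The mix of beta subunits differed between the tissues. Of all beta subunit reads, Atp1b3 took 98.3% in the cornea (exact interval 98.1 to 98.5) and 92.2% in the limbus (91.7 to 92.6). The share of Atp1b1 was 1.48% in the cornea against 5.31% in the limbus, and that of Atp1b2 was 0.209% and 2.50%. The level per kilobase of exon of Atp1b3 was 85.8 times that of Atp1b1 in the cornea and 22.4 times in the limbus. Because Atp1b1 shares 575 exon bases with Nme7 on the opposite strand, reads over those bases are assigned to the right gene only if counting used strand. The library kit kept strand, but whether the counting used it is not given in the sources used here.

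**Figure D1:**
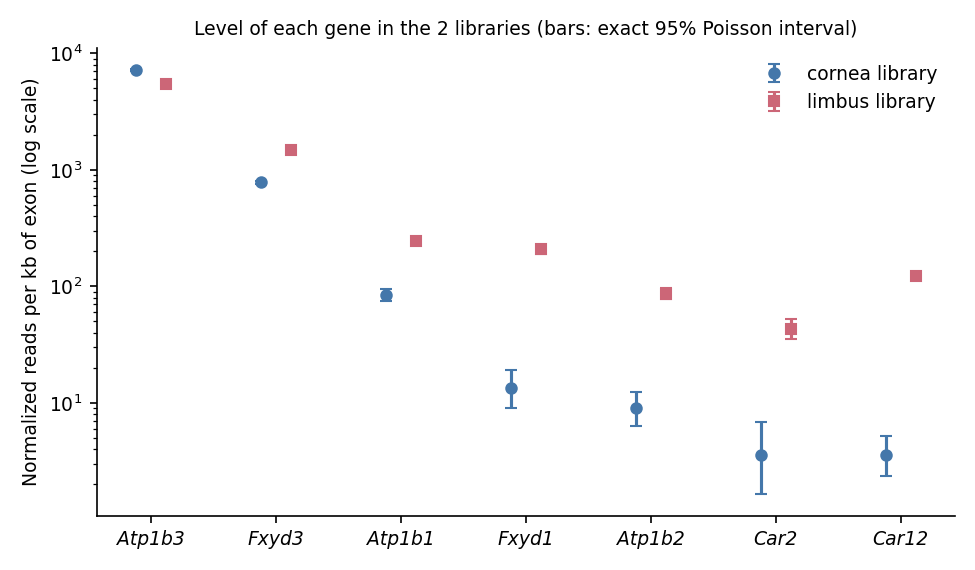
Normalized reads per kilobase of merged exon (log axis) of the 7 genes in the cornea library (circles) and the limbus library (squares), 1 library per tissue, with exact 95% Poisson intervals as bars. Atp1b3 is the highest in both libraries (cornea 7223.4, limbus 5452.6) and the only one of the 7 that is lower in the limbus.

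Per kilobase, the 7 genes spanned a wide range of levels, from 7223.4 normalized reads for Atp1b3 in the cornea to 3.57 for Car12 in the same library. In the cornea the order after Atp1b3 was Fxyd3 (780), Atp1b1 (84.1), Fxyd1 (13.3), Atp1b2 (9.0), Car2 (3.59) and Car12 (3.57). The intervals of Fxyd1 (8.96 to 19.0) and Atp1b2 (6.37 to 12.4) overlapped, and so did those of Car2 and Car12. In the limbus the order was Atp1b3 (5452.6), Fxyd3 (1467.9), Atp1b1 (244), Fxyd1 (208), Car12 (123), Atp1b2 (86.5) and Car2 (43.1). Car12, level with Car2 at the bottom in the cornea, stood above Atp1b2 and Car2 in the limbus. When the longest transcript replaced merged exons as the length, Fxyd1 and Atp1b1 exchanged places in the limbus and Car2 and Car12 in the cornea.

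Both FXYD genes were higher in the limbus, by very different amounts. Fxyd1 (phospholemman, chromosome 7, 31051678 to 31057199), the regulator known from heart and skeletal muscle, had 30 cornea and 440 limbus reads. It was 15.7-fold higher in the limbus (log2 ratio 3.97, interval 3.44 to 4.56), and 1.26% of genes tested had a higher ratio. Fxyd3 (chromosome 7, 31068172 to 31076704), known from epithelia, had 3911 cornea and 6887 limbus reads and was 1.88-fold higher in the limbus (log2 ratio 0.91, interval 0.86 to 0.97). Its interval stayed below a 2-fold difference. Under scaling to total reads the log2 ratio was 1.12 (interval 1.06 to 1.17), which, in a count added after the data were seen, would make Fxyd3 the sixth of the 7 genes beyond a 2-fold difference (12.3% of all genes tested were under that scaling). Fxyd3 shares 2059 exon bases with Lgi4 on the opposite strand, with the same limit as for Atp1b1. Per kilobase, Fxyd3 stood 58.8 times above Fxyd1 in the cornea and 7.05 times above it in the limbus.

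The other FXYD genes did not all lie on the same side. Fxyd5 (dysadherin), a modulator of cell adhesion, had 19 cornea and 385 limbus reads, a log2 ratio of 4.44 (interval 3.77 to 5.18), an interval that overlapped that of Fxyd1. Fxyd6, known from the nervous system, had 259 and 788 reads (1.70, interval 1.5 to 1.91). Fxyd4, known from the collecting duct of the kidney, was higher in the cornea, with 213 cornea and 37 limbus reads (-2.43, interval -2.97 to -1.92). Fxyd2, the gamma subunit of the kidney pump, and Fxyd7 had 1 cornea read each and 13 and 11 limbus reads. Their fold differences of 13.9 and 11.8 therefore had wide counting intervals, 2.09 to 590 and 1.71 to 506. Of all FXYD reads, Fxyd3 took 88.2% in the cornea and 80.4% in the limbus, Fxyd1 0.677% and 5.14%, and Fxyd4 4.80% and 0.432%. Per kilobase of exon, which does not favour long genes, these shares were 80.8% and 73.1% for Fxyd3, 1.37% and 10.4% for Fxyd1, and 10.9% and 0.973% for Fxyd4.

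Both carbonic anhydrases were rare in the cornea. Car12 (chromosome 9, 66713686 to 66766845), a plasma membrane enzyme with its active site outside the cell, had 28 cornea and 902 limbus reads. Its 34.4-fold difference (log2 ratio 5.11, interval 4.56 to 5.70) was the largest of the 7, and 0.44% of genes tested had a higher ratio. Car2 (chromosome 3, 14886273 to 14900770), the fast cytosolic enzyme of red cells and of many secretory epithelia, had 9 cornea and 101 limbus reads. It was 12-fold higher in the limbus, with a wide interval of 6.07 to 27.0 because of the 9 cornea reads (log2 ratio 3.58, interval 2.60 to 4.75).

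The remaining carbonic anhydrases put Car12 and Car2 in proportion. In the cornea, mitochondrial Car5b took 71.2% of all carbonic anhydrase reads, followed by the cytosolic enzymes Car3 (19.2%) and Car13 (6.47%), while Car12 took 0.651% and Car2 0.209%. In the limbus, Car5b took 34.6%, Car3 25.0%, Car13 19.7%, Car12 15.7% and Car2 1.76%. Shares of reads favour long genes, and per kilobase the order differed. Per kilobase, the cornea shares were 51.0% for Car5b, 30.6% for Car3, 12.8% for Car13, 0.39% for Car12 and 0.394% for Car2, and the limbus shares were 32.4% for Car3, 31.9% for Car13, 20.3% for Car5b, 7.70% for Car12 and 2.71% for Car2. Car5b itself was higher in the cornea, with 3060 cornea and 1986 limbus reads (log2 ratio -0.53, interval -0.61 to -0.45), and so was the secreted Car6, with 29 and 5 reads (-2.44, interval -4.17 to -1.05).

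Car13 (278 cornea and 1132 limbus reads, log2 ratio 2.12, interval 1.93 to 2.32), Car3 (827 and 1431 reads, 0.89, interval 0.76 to 1.01), the membrane enzyme Car14 (7 and 74 reads, 3.50, interval 2.38 to 4.86) and the membrane enzyme Car9, known as a target of hypoxia signaling (27 and 54 reads, 1.1, interval 0.40 to 1.82), were higher in the limbus. The intervals of Car7 (10 and 16 reads), Car15 (22 and 31), Car10 (1 and 7) and Car11 (45 and 61) included 0, so none of them could be placed on either side with these few reads. Car1 and Car4 were listed at 0, and Car5a and Car8 had no more than 3 reads in either library.

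**Figure D2:**
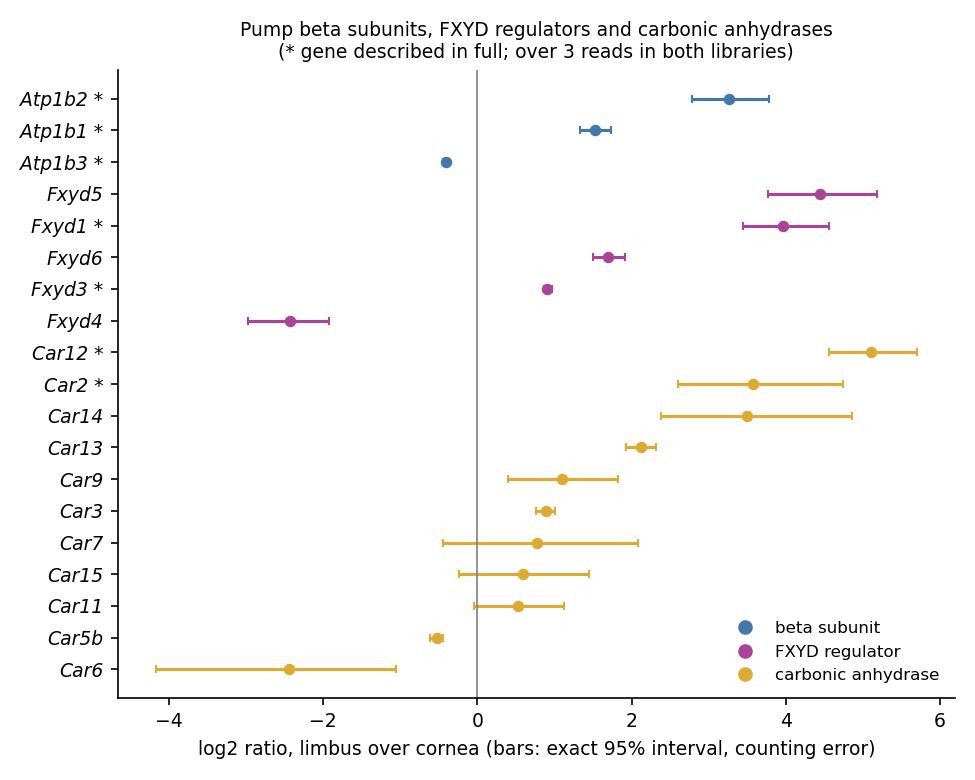
Log2 ratio of limbus over cornea (x axis) for each pump beta subunit, FXYD regulator and carbonic anhydrase or related protein with more than 3 reads in both libraries, coloured by family, with exact 95% intervals for counting error as bars and the 7 genes described in full marked by an asterisk. Car12 has the highest ratio (5.11), while Atp1b3 (-0.41), Car5b (-0.53), Fxyd4 (-2.43) and Car6 (-2.44) lie on the side of the cornea.

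The ratios of the 7 genes were also compared with each other. Of the 21 pairs, 18 had a 95% interval of the difference that excluded 0. These intervals are normal approximations from the read numbers and cover counting error only. The same count was not made for pairs of all genes tested, so nothing particular to the 7 is read from it. The 3 pairs whose interval included 0 were Fxyd1 and Car2 (difference in log2 ratio 0.39, interval -0.73 to 1.51), Fxyd1 and Atp1b2 (0.70, interval -0.02 to 1.42) and Car2 and Atp1b2 (0.32, interval -0.78 to 1.41). Those intervals leave room for differences above 2-fold between these genes. Car12 exceeded all the others.

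**Figure D3:**
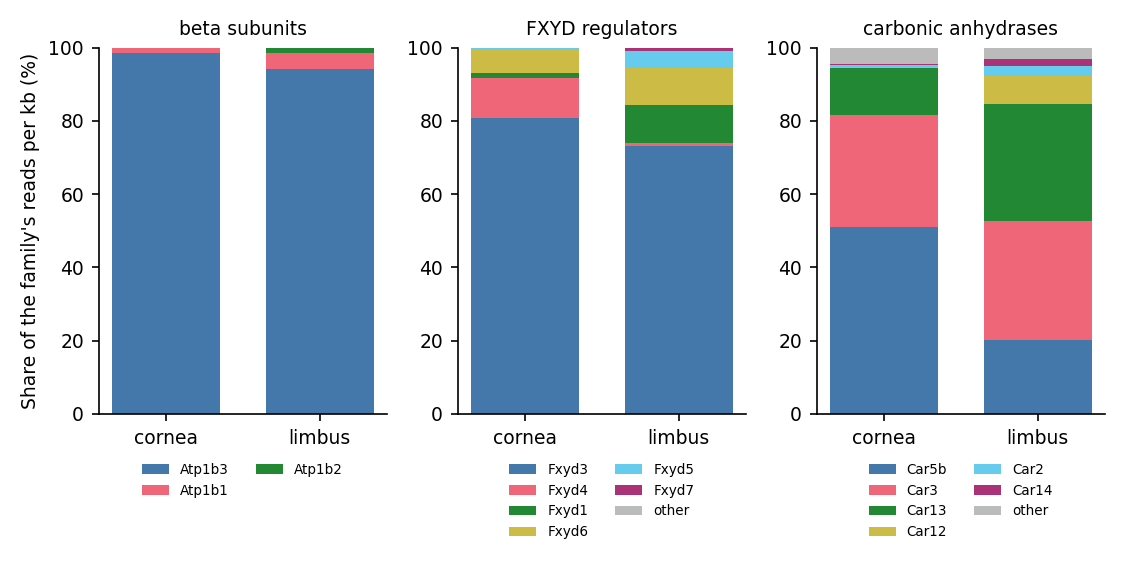
Share of each gene in the summed normalized reads per kilobase of its family (y axis, percent) in the cornea and limbus libraries, 1 panel for each of the beta subunits, FXYD regulators and carbonic anhydrases, with the 6 largest genes named where a family has more. Atp1b3 fills 98.7% of the beta column in the cornea and 94.3% in the limbus, while the Car12 share of the carbonic anhydrases is 0.39% and 7.70%.

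Counted by list, all 3 beta subunit genes with reads passed the floor of 3 reads in each library, of which 2 lay higher in the limbus and 1 higher in the cornea. Of 5 FXYD genes above the floor, 4 were higher in the limbus and 1 was higher in the cornea, and their median log2 ratio was 1.70. Of 11 carbonic anhydrases and related proteins, 6 were higher in the limbus, 2 were higher in the cornea and 3 in neither, with a median of 0.89. These counts stand beside 33.2% and 40.6% of all genes tested, and they include the 7 genes, which were picked with their values known. In all, the lists of pump, carbonic anhydrase and transport genes held 84 genes, of which 60 passed the floor: 35 were higher in the limbus, 14 were higher in the cornea and 11 in neither, with a median log2 ratio of 0.80. Without the 7 genes the counts were 29, 13 and 11 of 53, and the median was 0.77.

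**Figure D4:**
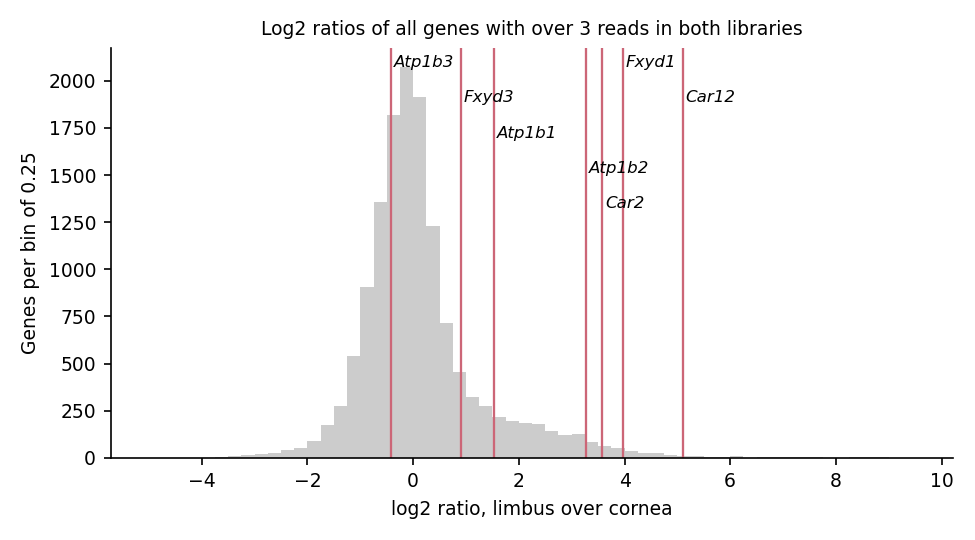
Number of genes (y axis) in bins of 0.25 of the log2 ratio of limbus over cornea (x axis) for the 13862 genes tested, with a vertical line at the ratio of each of the 7 genes. Atp1b3 lies within the main peak, Fxyd3 and Atp1b1 on its right shoulder, and Atp1b2, Car2, Fxyd1 and Car12 in the right tail.

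Transporters that work beside the pump lay on both sides. Of 38 above the floor, 20 were higher in the limbus, 10 were higher in the cornea and 8 in neither, with a median of 0.62, beside 33.2% and 40.6% of all genes tested. Reported by name are 17 of those with the largest log2 ratios in either direction and at least 50 reads. Of these, 9 were higher in the limbus, 7 were higher in the cornea and 1, the chloride channel Best2, had an interval that included 0 (0.79, interval -0.04 to 1.65).

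On the side of the limbus were the chloride channel protein Clic6 (log2 ratio 3.82), the potassium-chloride cotransporters Slc12a5 (2.90) and Slc12a7 (2.07), the chloride channels Clcn2 (2.77) and Ano1 (1.5), the lactate carrier Slc16a3 (2.40), and the bicarbonate or anion carriers Slc4a3 (2.36) and Slc4a5 (2.28). Emb (1.34), a chaperone of monocarboxylate carriers, was also on this side.

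On the side of the cornea were the most abundant of the named carriers. The water channel Aqp5 had 132834 cornea and 54569 limbus reads (-1.19), and the sodium-potassium-chloride cotransporter Slc12a2, which loads epithelial cells with chloride using the sodium gradient of the pump, had 14579 and 7345 reads (-0.89). The sodium-bicarbonate cotransporter Slc4a7 (-2.66), Aqp2 (-2.29), the monocarboxylate carriers Slc16a7 (-1.61) and Slc16a1 (-1.29) and the chloride-proton exchanger Clcn3 (-0.81) were also higher in the cornea.

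**Figure D5:**
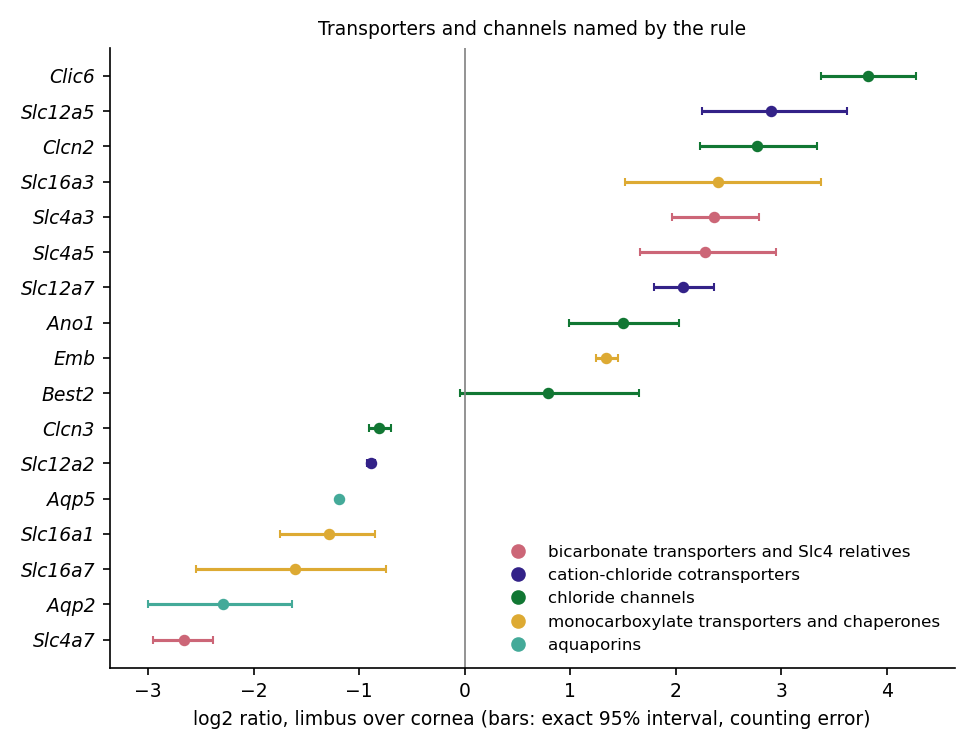
Log2 ratio of limbus over cornea (x axis) of the 17 transporters and channels reported by name, from those with the largest ratios in either direction and at least 50 reads, coloured by family, with exact 95% intervals for counting error as bars. Clic6 has the highest ratio (3.82) and Slc4a7 the lowest (-2.66).

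Markers of other tissues and cell types were compared between the libraries in the same way. Beside the counts below stand 33.2% of all genes tested called higher in the limbus and 40.6% higher in the cornea. The 8 skeletal muscle genes were all higher in the limbus, and their summed normalized reads were 467 in the cornea and 11197.5 in the limbus, 24.0 times as much. Sums here are over every gene of a list, and counts are of its genes above the floor of 3 reads in each library. All genes above the floor were higher in the limbus for smooth muscle and pericytes (5 of a list of 6, 19.0 times in sum), vascular endothelium (3 of 6, 13.1 times), Schwann cells (4 of 5, 1.66 times), pigment cells (5 of 6, 5.41 times) and leukocytes (5 of 5, 2.13 times). The 4 photoreceptor genes were all higher in the limbus (539 and 5286.6 normalized reads in sum). The conjunctival list of 6 genes, with 5 of 5 above the floor higher in the limbus, summed to 37904.9 normalized reads in the cornea against 231930.9 in the limbus.

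Of the corneal endothelial list, whose cells carry the fluid pump, 4 of 4 genes were higher in the limbus (2318.8 and 6502.3 normalized reads). Most of both sums came from 1 gene, Col8a2 (1275.9 and 4468.9), so the sums mainly describe that gene. The list member Slc4a11, an ion transporter mutated in endothelial dystrophy, had 843 cornea and 1226 limbus reads. Its log2 ratio was 0.64 (interval 0.51 to 0.76), which stayed below a 2-fold difference. The keratocyte genes were split: 4 of 6 were higher in the limbus, 1 was higher in the cornea and 1 in neither (1.19 times in sum). Their log2 ratios ran from -2.99 to 5.39. Of the 6 corneal epithelial genes, 1 was higher in the limbus and 5 were higher in the cornea (0.437 times in sum).

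Ciliary epithelium was represented by few reads: Best2 had 21 cornea and 34 limbus reads, Aqp4 had 7 and 14, and Zic1 3 and 14. Of the red cell markers, relevant to Car2, Hba-a1 and Hba-a2 were listed at 0 and Alas2 had 95.8 normalized reads in the cornea against 105 in the limbus. The part of any of these cell types in the ratios of the 7 genes was not tested, and fewer cells of a type and less RNA per cell cannot be told apart in pooled tissue.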

How the data were processed

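The libraries of pooled rims and buttons were analyzed through 1 deposited table. The authors used CLC Genomics Workbench to trim adaptors and to map to GRCm38 (mm10), and normalized by the trimmed mean of M-values. For each gene the authors deposited the mean normalized signal over the libraries, and a log2 fold change with standard error, p-value and adjusted p-value. The p-values were not used, and the fold change and error served only to choose read numbers. No counts per sample were used, so the planned ratios were computed from derived reads.

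Each mean was written as whole reads of 1 library per tissue. It allowed 1 pair of read numbers for 6143 of 17442 genes, and several for 11299. Of these, 11280 were placed within 0.001 of the deposited fold change and error by a fitted shrinkage model, and 19 with a free dispersion. On simulated data, reads of 17068 of 17068 genes were found exactly, all 200 changed genes had the right direction, and 38 of 1000 unchanged genes lay outside the 95% interval. The simulated fold changes and errors came from the same fitted model, with reads drawn by counting error alone. The simulation therefore checks the procedure and cannot show whether that model suits the deposited values or how libraries vary. The table has 40904 rows, and the 17484 without a gene name were left out. Accessions in the table mostly belong to other genes (2 of 18556 matched the gene of their row), so symbols were used.

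Ratios were tested only against counting error, by exact Clopper-Pearson intervals at 95%, with a floor of 3 reads per library. The same step gave Poisson intervals per kilobase of merged exon (GENCODE M21). Named in the text are the 7 genes, the other pump, FXYD and carbonic anhydrase genes, and up to 20 transporters with the largest log2 ratio in either direction among those with at least 50 reads. Marker genes were named beside them, and the values of some genes that this rule names are not reported here. The genes and lists were chosen with earlier results of these data known. Alternatives were another scaling, a pseudocount of 1, other filters, transcript lengths and the next best read pair. Python 3.11.15, numpy 2.4.6, scipy 1.17.1, pandas 2.3.3 and matplotlib 3.10.9 were used.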

Additional observations from a re-analysis of the deposited data

How the results depend on the processing

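The count of 6 genes higher in the limbus and 1 higher in the cornea was the same under every scaling and filter tried, and no ratio changed sign. The count beyond a 2-fold difference towards the limbus was 5, and 6 after scaling to total reads. Scaling to total reads on named genes added 0.21 to every log2 ratio, which gave -0.20 for Atp1b3 and 1.12 for Fxyd3. Scaling by the trimmed mean of M-values, computed on the derived reads, added 0.02. If the next best pair of read numbers were the true one, the log2 ratios would be 2.48 for Atp1b1, 0.80 for Atp1b2, 1.38 for Fxyd1, 0.97 for Fxyd3 and 2.64 for Car12, while Car2 allows 1 pair only. With the longest transcript as the length, 2 of the 7 genes changed place in each library. No paired analysis was possible because the table holds 1 library per tissue and no numbered samples, and for the same reason no replicate could be left out. Depth limits Car2 most, with 9 cornea reads.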
